A study of Homo sapiens with 8 samples.

Results

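The genes described here encode the working parts of the lysosome and of the proton pump that acidifies it: enzymes and receptors that sort hydrolases, lysosomal membrane proteins, peptidases, glycosidases, sulfatases, lipid hydrolases with their cofactors, and subunits of the vacuolar ATPase (V-ATPase). They comprise 52 genes among 20033 protein-coding genes. Membership rests on function, but the list was drawn up with earlier results of these peak lists known, and the study itself had singled out 2 of its genes, NAGPA and LAMP1, as bound in these data, so the shares given below are a description and not those of a list blind to the data. A gene was counted as bound if a PHF20 or PHF20L1 peak overlapped the promoter window, which began 1000 bp before and ended 500 bp after the transcription start site (TSS) of any annotated transcript of the gene. Under this rule 27 of the 52 genes were bound by PHF20, 12 of these also by PHF20L1, and 25 had no peak of either protein.

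PHF20 and PHF20L1 are related chromatin proteins that recognise methylated lysine and take part in the NSL complex, which acetylates histones through the enzyme KAT8. ChIP-Seq was done with an antibody to the HA tag in U2OS, a human osteosarcoma line, after over-expression of PHF20 with a triple HA tag at the N terminus (2 ChIP samples and 1 input) or of PHF20L1 with the tag at the N or the C terminus (3 ChIP samples and 2 inputs). The constructs were lentiviral and the cells were sorted for GFP, so every group, inputs included, carried a tagged, over-expressed protein. No deletion of the endogenous genes is named for any group. The deposited data are 1 final list of peak positions per protein, 4147 peaks for PHF20 and 723 for PHF20L1. The lists hold no peak height, no read count and no value for each replicate, so the spread between replicates could not be given and the read depth behind each peak is not in them. A promoter outside a list was not called, and whether the protein was absent there cannot be read from the list. In addition, the identity of the cells cannot be checked from peak positions.

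Lysosomes degrade macromolecules with acid hydrolases that work at the low pH maintained by the V-ATPase, in which the cytosolic V1 sector hydrolyses ATP and the membrane V0 sector conducts protons. Many soluble hydrolases are tagged with mannose 6-phosphate in the Golgi and carried by mannose 6-phosphate receptors. Promoters of many of these genes are known to hold a palindromic E-box within a longer element, the CLEAR element, that is recognised by the MiT/TFE transcription factors such as TFEB and TFE3. No MiT/TFE factor was measured in these data.

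E-box sequence lay in the PHF20 peaks of most of the bound genes, and the clearest cases are shown first, because the comparisons further on turn on them. The hexamer searched was CACGTG, a palindrome, and the longer octamer was TCACGTGA, also a palindrome, which contains it. Each line gives 30 bases of hg38 in the orientation of the gene, 5′ to 3′, with the hexamer in capitals. All lie in PHF20 peaks, and NAGPA, GNPTG, CLN3, CTSA and ATP6V1A hold the printed hexamer inside a PHF20L1 peak as well.
NAGPA, chr16:5033938-5033967, minus strand: tgggacttgagtCACGTGaggcgagcccac
GNPTG, chr16:1351907-1351936, plus strand: ggtccccgtggtCACGTGaccgtcacttca
CLN3, chr16:28492058-28492087, minus strand: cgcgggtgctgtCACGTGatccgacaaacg
CTSA, chr20:45891298-45891327, plus strand: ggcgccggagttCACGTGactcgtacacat
GAA, chr17:80101538-80101567, plus strand: gctcccgccggtCACGTGacccgcctctgc
ATP6V1A, chr3:113746686-113746715, plus strand: aagttttaagatCACGTGattggcccaaac
ATP6V1G1, chr9:114587699-114587728, plus strand: acgctgtgcggtCACGTGacaacgggggcg
ATP6V0D1, chr16:67481199-67481228, minus strand: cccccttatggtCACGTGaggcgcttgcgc

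All 8 of these hexamers read as the full octamer with its outer bases, but they were picked as the clearest cases, so this is no result. Copies nearer to the peak centre lay at GNPTG, CLN3, GAA and ATP6V1A, and those of CLN3 and ATP6V1A were not octamers. The CLN3 hexamer lay in untranslated exon sequence 2 bp downstream of the canonical TSS, and the other printed hexamers lay upstream of the canonical TSS of their gene, that of ATP6V1A 335 bp and that of NAGPA 17 bp upstream. LAMP1, which encodes an abundant heavily glycosylated protein of the lysosomal membrane, and IGF2R, which encodes the cation-independent mannose 6-phosphate receptor, held the most hexamers in their PHF20 peaks. The stretches below lie upstream of all annotated TSSs of either gene, on hg38 and on the plus strand, with each hexamer in capitals.
LAMP1, chr13:113297035-113297114: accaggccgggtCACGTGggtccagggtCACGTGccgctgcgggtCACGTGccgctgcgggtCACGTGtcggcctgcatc
IGF2R, chr6:159968938-159969071: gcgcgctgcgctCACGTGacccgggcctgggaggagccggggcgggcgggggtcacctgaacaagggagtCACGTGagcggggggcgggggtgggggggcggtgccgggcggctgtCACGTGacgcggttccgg

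The LAMP1 stretch of 80 bp carries 4 hexamers, each preceded by T but none followed by A, and 2 further copies at 26 bp upstream and 1 bp downstream of the canonical TSS read as the octamer. In IGF2R all 3 copies, at 130, 72 and 26 bp upstream, read as the octamer. TPP1, a serine tripeptidyl peptidase, and PPT1, a thioesterase that removes palmitate from proteins, held no hexamer in their peaks but a near relative that differs within the core, TCATGTGA or its reverse complement TCACATGA. In the lines for them, 30 bases on the minus strand of hg38, the relative is in capitals.
TPP1, chr11:6619425-6619454: gaatatagagcTCATGTGAtccgtcacatg
PPT1, chr1:40097238-40097267: cgcgcccgcggTCATGTGAcacagcgaaga

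The PHF20 peak of TPP1 held 3 copies of this relative, 17 and 5 bp upstream of the canonical TSS and 384 bp downstream in an intron. That of PPT1 held 2, at the TSS and 746 bp downstream in an intron.

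**Figure D1:**
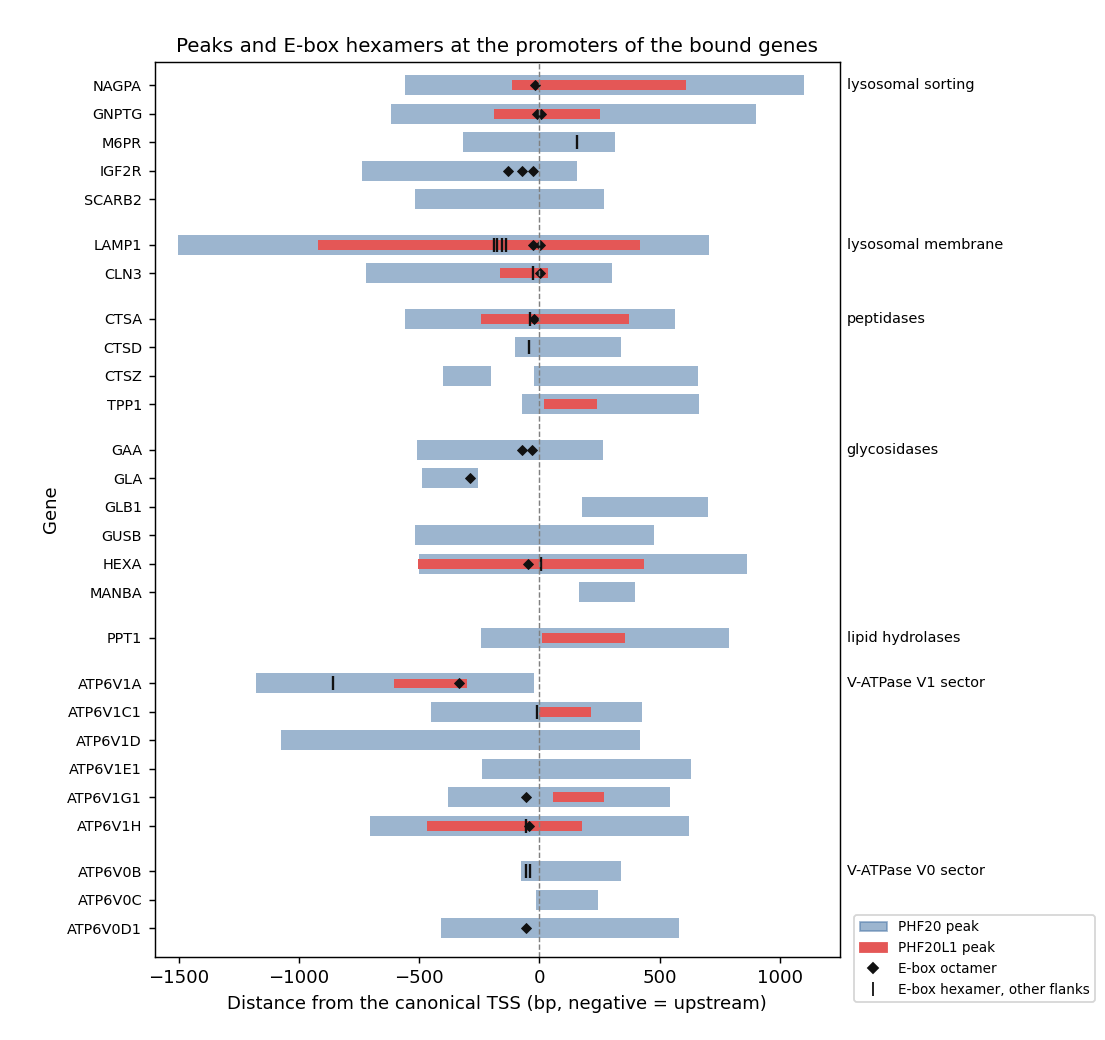
PHF20 peaks (wide bars), PHF20L1 peaks (narrow bars) and E-box sequences (symbols) at the 27 bound genes, by distance in bp from the canonical TSS, with genes grouped by role. PHF20L1 peaks lie within the PHF20 peaks except for 7 bp at HEXA, and most symbols stand just upstream of the TSS.

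PHF20 bound 27 of the 52 genes, or 51.9% (95% Wilson interval 38.7 to 64.9%), against 20.7% of all protein-coding genes. PHF20L1 bound 12, or 23.1% (13.7 to 36.1%), against 3.82% of all protein-coding genes. With PHF20L1 peaks of the list's median width or more the count was 7, or 13.5% against 2.11%. These intervals, and those given further on, cover counting error only. Every gene bound by PHF20L1 was also bound by PHF20, as were 97.5% of all protein-coding genes bound by PHF20L1. Thus 44.4% of the PHF20-bound lysosomal genes carried a PHF20L1 peak, against 18% of all PHF20-bound protein-coding genes. The shares are set side by side as a description without a test, since the genes belong to shared pathways and no peak has a replicate value.

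Among the 6 sorting genes, PHF20 bound 5, 83.3% against 20.7% of all protein-coding genes. PHF20L1 bound NAGPA and GNPTG, 33.3% against 3.82%. GNPTG encodes the gamma subunit of the phosphotransferase that makes the mannose 6-phosphate mark, and NAGPA encodes the uncovering enzyme that completes it. The NAGPA peaks were 1661 bp wide for PHF20 (chr16:5032835-5034495) and 724 bp for PHF20L1, and those of GNPTG were 1515 bp (chr16:1351316-1352830) and 441 bp. Both mannose 6-phosphate receptor genes had a PHF20 peak but no PHF20L1 peak, of 631 bp at M6PR and 893 bp at IGF2R. SCARB2, which encodes the receptor that carries glucocerebrosidase to lysosomes, had a PHF20 peak of 785 bp without a hexamer. GNPTAB, which encodes the catalytic subunits of the phosphotransferase, was the sorting gene without a peak, and its nearest PHF20 peak lay 288554 bp away.

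Of the 5 membrane protein genes, LAMP1 and CLN3 were bound by both proteins, whereas LAMP2, NPC1 and MCOLN1 were bound by neither. The share was 40% for either protein, against 20.7% of all protein-coding genes for PHF20 and 3.82% for PHF20L1. At LAMP1 the PHF20 peak of 2207 bp (chr13:113295738-113297944) and the PHF20L1 peak of 1339 bp (chr13:113296320-113297658) were each the second widest of their whole list and the widest at any protein-coding promoter. CLN3, mutated in juvenile neuronal ceroid lipofuscinosis, had a PHF20 peak of 1021 bp (chr16:28491774-28492794). Its PHF20L1 peak measured 200 bp, the minimum width in that list, and covered both hexamers.

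The 8 peptidase genes divided evenly for PHF20, at 50% against 20.7% of all protein-coding genes. CTSA, CTSD, CTSZ and TPP1 had a PHF20 peak, and CTSB, CTSC, CTSF and CTSL had none. CTSA, a carboxypeptidase that also protects beta-galactosidase and neuraminidase, had peaks of 1125 bp for PHF20 (chr20:45890775-45891899) and 613 bp for PHF20L1. TPP1 had peaks of 736 bp (chr11:6618757-6619492) and 219 bp. CTSD, the main lysosomal aspartic protease, had a PHF20 peak of 441 bp with 1 hexamer, and CTSZ had PHF20 peaks of 683 and 200 bp with none.

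PHF20 bound 6 of the 9 glycosidase genes, 66.7% against 20.7% of all protein-coding genes, with peaks from 231 bp at GLA to 1363 bp at HEXA. HEXA, the alpha subunit of beta-hexosaminidase that is deficient in Tay-Sachs disease, was the glycosidase gene also bound by PHF20L1, with the fourth widest peak of that list at 943 bp. GAA, the acid alpha-glucosidase deficient in Pompe disease, had a PHF20 peak of 774 bp (chr17:80101073-80101846) with 2 octamers. GUSB (994 bp), GLB1 (526 bp) and MANBA (236 bp) had PHF20 peaks without a hexamer, and IDUA, NAGLU and NEU1 were not bound. None of the 4 sulfatase genes IDS, SGSH, ARSA and ARSB had a peak of either protein, a count whose Wilson interval reaches 49.0%. Over all protein-coding genes the shares were 20.7% for PHF20 and 3.82% for PHF20L1, so 0 among 4 was not far from the background. Of the 5 genes for lipid hydrolases and their cofactors PHF20 bound 1, PPT1, or 20% against 20.7% of all protein-coding genes. PPT1 was bound by both proteins, with peaks of 1034 bp (chr1:40096462-40097495) for PHF20 and 346 bp for PHF20L1. SMPD1, ASAH1, PSAP and NPC2 were not bound.

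In the V-ATPase, PHF20 bound 9 of 15 genes, 60% against 20.7% of all protein-coding genes. PHF20L1 bound 4 of the 15, 26.7% against 3.82%. PHF20L1 peaks were found at V1 genes, 4 of 8, and at none of 5 V0 genes. With so few genes the Wilson intervals of these shares, 21.5 to 78.5% and 0 to 43.4%, overlap. As PHF20L1 bound 3.82% of all protein-coding genes, a count of 0 among 5 was not far from the background. ATP6V1A, the catalytic subunit, had peaks of 1157 bp (chr3:113745856-113747012) and 305 bp. ATP6V1H, a regulatory subunit, had peaks of 1328 and 644 bp. ATP6V1C1 had peaks of 877 and 217 bp, and ATP6V1G1 had peaks of 922 bp (chr9:114587391-114588312) and 213 bp; both encode subunits of the stalks that hold the sector together. ATP6V1D, part of the central rotor, and ATP6V1E1, part of the peripheral stalks, had PHF20 peaks of 1492 and 872 bp and no PHF20L1 peak. In the V0 sector, the proteolipid genes ATP6V0B and ATP6V0C and the gene ATP6V0D1 had PHF20 peaks of 417, 258 and 989 bp. ATP6V1B2, ATP6V1F, ATP6V0A1 and ATP6V0E1 were not bound, and neither were the accessory genes ATP6AP1 and ATP6AP2.

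**Figure D2:**
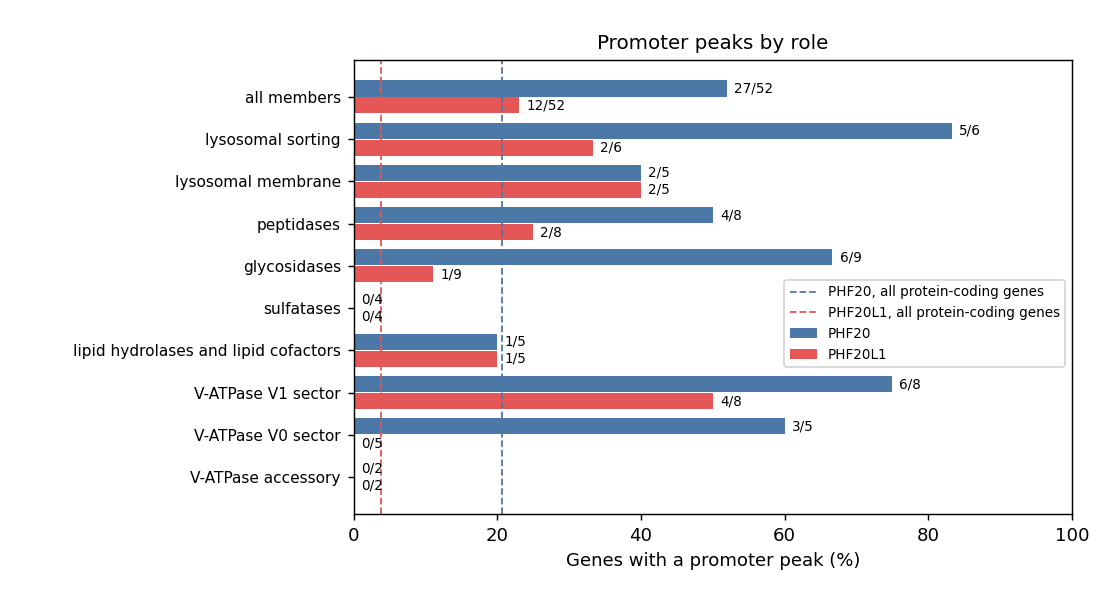
Percent of genes with a promoter peak of PHF20 or PHF20L1 for each role, with counts beside the bars; dashed lines mark the 20.7% and 3.82% of all protein-coding genes. PHF20 bars exceed the PHF20 line in sorting, membrane, peptidase, glycosidase, V1 and V0 genes, reach about the line in lipid hydrolases, and are at 0 in sulfatases and V-ATPase accessory genes.

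Among the 25 genes without a promoter peak, the shortest distance from a TSS of any of them to a PHF20 peak was 13429 bp, at NAGLU, the glycosidase deficient in Sanfilippo syndrome type B, and 0 of the 25 had a PHF20 peak within 10000 bp, against 5.05% of all protein-coding genes without a promoter peak. All 27 bound genes had a peak in the window of the canonical TSS, as did 92.4% of all bound protein-coding genes. In 23 of them a PHF20 peak covered the canonical TSS itself. In the other 4 it lay to one side, upstream at GLA and ATP6V1A and downstream at GLB1 and MANBA.

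The PHF20 peaks of the lysosomal genes were mostly wider than the usual promoter peak. Their median width, taking the widest peak of each gene, was 893 bp (interquartile range 657 to 1141 bp, n = 27), and 20 of the 27 exceeded the median of 682 bp over all 4148 bound protein-coding genes. The 12 genes also bound by PHF20L1 had a median PHF20 width of 1141 bp, against 989 bp over all 747 protein-coding genes with both proteins. The 15 genes without PHF20L1 had a median of 683 bp, against 614 bp over the 3401 protein-coding genes of that kind. The ranges of the lysosomal groups overlapped, from 736 to 2207 bp with PHF20L1 and from 231 to 1492 bp without it. ATP6V1D was the widest without PHF20L1. By the study's methods the listed peaks are those of the best replicate of each protein, so a width is where the peak caller drew the edges in 1 replicate, and it is not a measure of occupancy.

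**Figure D3:**
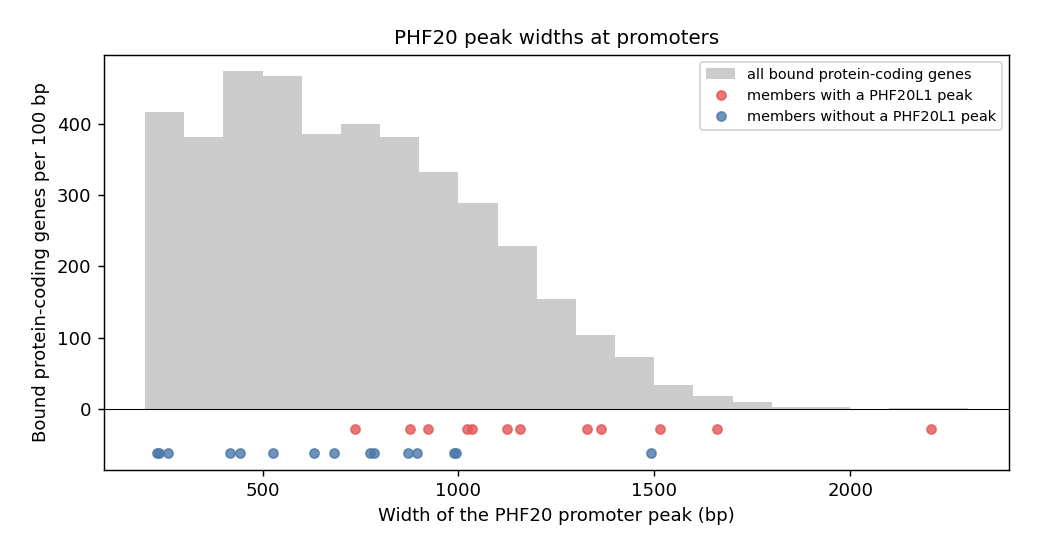
Width in bp of the PHF20 promoter peak: the histogram counts all 4148 bound protein-coding genes per 100 bp, and points below the axis are the 27 bound lysosomal genes. Points of the 12 genes also bound by PHF20L1 run from 736 to 2207 bp, and 20 of all 27 points lie above 682 bp.

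PHF20L1 peaks were narrower and nested. At the 12 genes their median width was 393.5 bp (range 200 to 1339 bp), against 331.5 bp over all 766 protein-coding genes bound by PHF20L1, and 11 of the 12 lay wholly inside the PHF20 peak of the gene. They covered between 19.6% of it at CLN3 and 68.7% at HEXA, with a median of 31.6%. Narrower PHF20L1 peaks were not particular to these genes. Over all protein-coding genes with both proteins the median PHF20 width was 989 bp. The share of nested peaks over those genes is not given here.

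E-box hexamers were frequent in the PHF20 peaks of these genes. CACGTG occurred in the PHF20 promoter peak of 17 of the 27 bound genes, 63.0% (Wilson interval 44.2 to 78.5%), against 18.3% of all bound protein-coding genes. The octamer TCACGTGA occurred in 13 of the 27, 48.1% (30.7 to 66.0%), against 4.85%. Because wide peaks hold more sequence, counts were also set against length. The lysosomal peaks held 32 hexamers in 25368 bp, 1.26 per kb, and all promoter peaks held 0.305 per kb. For the octamer the densities were 0.710 and 0.0688 per kb. In the 500 bp around the peak centre, a window of equal length for every gene, 15 of the 27 held the hexamer, 55.6% against 15.5%.

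The shares were also taken within classes of peak width. The hexamer was present in 1 of 3 lysosomal peaks below 400 bp, 4 of 8 from 400 to 800 bp, 7 of 10 from 800 to 1200 bp and 5 of 6 from 1200 bp upward. Over all bound protein-coding genes the shares in these classes were 9.91%, 16.5%, 22.3% and 31.0%. The lowest class rests on 1 lysosomal gene, GLA, and shows nothing on its own. Copies were also repeated. Among the 27 genes, 10 had at least 2 hexamers in the PHF20 peak, 37.0% against 3.93%. After LAMP1 with 6 and IGF2R with 3, those with 2 were GNPTG, CLN3, CTSA, GAA, HEXA, ATP6V1A, ATP6V1H and ATP6V0B. Over all bound protein-coding genes LAMP1 was the only 1 with 5 or more.

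Other short sequences were counted in the same way. The octamer of ETS family sites, ACTTCCGG or CCGGAAGT on the other strand, occurred in 3 of the 27 peaks (GNPTG, CLN3 and HEXA), 11.1% (3.85 to 28.1%) against 19.7% of all bound protein-coding genes. The GC box GGGCGG or CCGCCC occurred in 25, 92.6% against 82.0%, and CCAAT or ATTGG in 15, 55.6% against 44.0%. In the 500 bp around the peak centre both directions turned, with the GC box at 74.1% against 78.9% and CCAAT or ATTGG at 25.9% against 35.8%. The loose E-box CANNTG, where N is any base, occurred in 26, 96.3% against 85.1%, so it separated the groups little. This pattern contains every hexamer counted above. The E-box-like hexamer CATGTG or CACATG occurred in 11, 40.7% against 14.2%, and its octamer form TCATGTGA or TCACATGA in 5, 18.5% against 1.71%. TPP1, GLA, PPT1, ATP6V1A and ATP6V1E1 were the 5. A match to these letters is a description of the sequence and shows no bound factor.

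**Figure D4:**
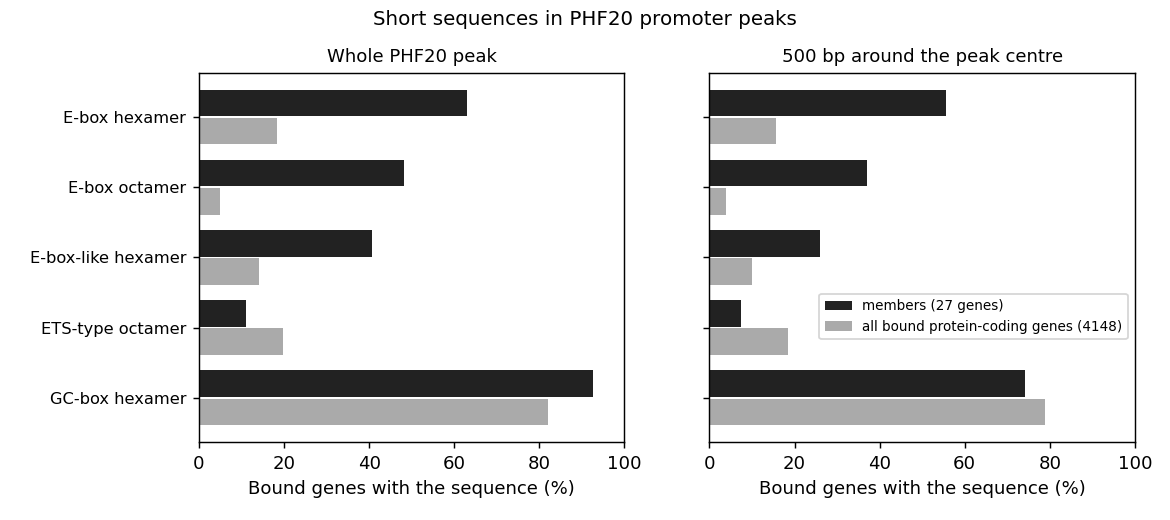
Percent of PHF20-bound genes with each short sequence in the whole PHF20 promoter peak (left) or in the 500 bp around its centre (right), for the 27 lysosomal genes (dark) and all 4148 bound protein-coding genes (grey). The E-box hexamer stands at 63.0% against 18.3% in whole peaks, and the ETS-type octamer at 11.1% against 19.7%.

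Of the 32 hexamers, 18 were part of the octamer, 13 had the matching base on one side only and 1, 857 bp upstream of ATP6V1A, had neither. They clustered at the TSS. Within the 100 bp upstream of the canonical TSS lay 19 of the 32, 59.4%, against 24.3% of the 960 hexamers in PHF20 peaks counted gene by gene over all bound protein-coding genes. The median position was 43.5 bp upstream, against 70 bp upstream. By annotation 27 were upstream of the canonical TSS, 4 lay in untranslated exon sequence (GNPTG, LAMP1, CLN3 and HEXA) and 1 lay in an intron (M6PR). Relative to the centre of the PHF20 peak, 8 lay within 100 bp, 25% against 30.1%, and 25 within 250 bp, 78.1% against 72.0%.

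**Figure D5:**
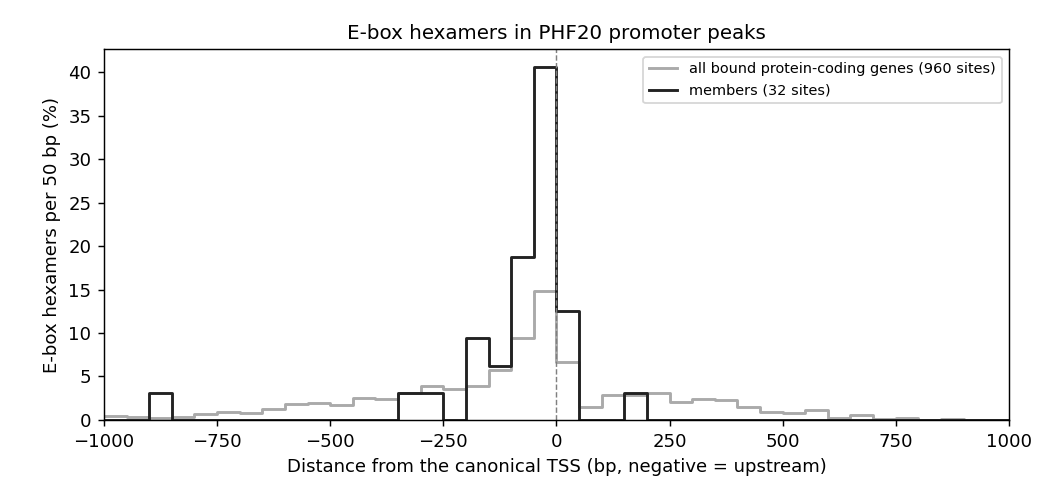
Percent of E-box hexamers in PHF20 promoter peaks per 50 bp, by distance in bp from the canonical TSS, for the 32 hexamers of lysosomal genes (dark) and the 960 of all bound protein-coding genes (grey; those beyond 1000 bp are not drawn). The dark line is highest in the bins just upstream of the TSS, where 59.4% of its hexamers lie within 100 bp.

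The E-box counts were then split by PHF20L1. CACGTG occurred in the PHF20 peak of 10 of the 12 genes with PHF20L1 and 7 of the 15 without it, and the octamer in 9 of 12 and 4 of 15. The Wilson intervals of these shares overlap, at 55.2 to 95.3% and 24.8 to 69.9% for the hexamer and at 46.8 to 91.1% and 10.9 to 52.0% for the octamer. Over all PHF20-bound protein-coding genes the same split was 24.6% with PHF20L1 and 16.9% without it for CACGTG, and 10.2% and 3.68% for the octamer. Counting the octamer or its relative TCATGTGA, a combination chosen after the data were seen, the numbers were 11 of 12 and 5 of 15, against 13.8% and 4.65%, and the remaining gene of the 12 was ATP6V1C1. Peaks with PHF20L1 were also wider, and the part of width in this split was not tested. In the 500 bp around the peak centre CACGTG was in 8 of 12 and 7 of 15 genes, and TCACGTGA in 6 of 12 and 4 of 15. Over all protein-coding genes with both proteins the counts there were 127 of 747 for CACGTG and 54 of 747 for TCACGTGA. The counts there over all genes with PHF20 and without PHF20L1 are not given here. Per kb of PHF20 peak the 2 lysosomal groups were closer, at 1.41 hexamers with PHF20L1 and 1.06 without, and at 0.736 and 0.672 octamers. In whole peaks the split was not particular to the E-box, as CCAAT or ATTGG occurred in 11 of 12 and 4 of 15. In the 500 bp around the centre it was in 4 of 12 and 3 of 15. Over all protein-coding genes with both proteins its shares were 59.2% in whole peaks and 36.0% around the centre. ACTTCCGG or CCGGAAGT occurred in 3 of 12 and 0 of 15, and the GC box in 11 of 12 and 14 of 15. Over all protein-coding genes with both proteins the shares were 30.3% and 87.6%, so the counts among the 12 were not far from the background.

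Within the 12 genes the hexamers fell mainly where PHF20L1 was called. PHF20L1 peaks covered 41.5% of the PHF20 peak sequence and held 18 of its 21 hexamers, 2.90 per kb inside against 0.343 per kb outside. LAMP1 alone held 6 of the 18. Most of these PHF20L1 peaks covered the canonical TSS, near which the hexamers clustered, and the part of position was not tested. Over all protein-coding genes with both proteins 35.4% of the sequence held 56.5% of the hexamers, 0.548 against 0.232 per kb. A hexamer lay inside the PHF20L1 peak at 8 of the 12 genes (NAGPA, GNPTG, LAMP1, CLN3, CTSA, HEXA, ATP6V1A and ATP6V1H). At ATP6V1C1 and ATP6V1G1 the hexamer lay in the PHF20 peak only, and the PHF20L1 peaks of TPP1 and PPT1 held neither the hexamer nor TCATGTGA.

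The promoter sequence was then read without regard to peaks, over the 1501 bp window of the canonical TSS. The hexamer was in the window of 28 of the 52 genes, 53.8% against 24.0% of all protein-coding genes, and the octamer in 14, 26.9% against 2.39%. Of the 28 genes with the hexamer PHF20 bound 18, 64.3%, against 24.5% of all protein-coding genes with it. Of the 24 genes without it PHF20 bound 9, 37.5% against 19.5%. With the octamer 13 of 14 were bound, 92.9% (Wilson interval 68.5 to 98.7%), against 49% of the 478 protein-coding genes with it. PHF20L1 bound 9 of the 14, 64.3% against 15.3%.

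MCOLN1, which encodes the lysosomal cation channel mucolipin-1, was the 1 gene of the 14 without a peak. Its window held the octamer at 39 and 12 bp upstream of the canonical TSS, positions like those of the bound genes, and the nearest PHF20 peak was 95586 bp away. Its sequences, on the plus strand of hg38 with the hexamer in capitals, can be compared with those printed above for bound genes.
MCOLN1 distal copy, chr19:7522571-7522600: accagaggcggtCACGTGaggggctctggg
MCOLN1 proximal copy, chr19:7522598-7522627: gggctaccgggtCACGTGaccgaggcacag

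The window of CTSF held 3 hexamers and those of NAGLU and PSAP held 2 each, none of them an octamer, and these genes likewise had no peak. In the other direction, 7 bound genes held neither the hexamer nor TCATGTGA in the PHF20 peak: SCARB2, CTSZ, GLB1, GUSB, MANBA, ATP6V1D and ATP6V0C. Of these ATP6V1D, at 1492 bp, had one of the 5 widest peaks of the set.

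Most of the promoters were rich in CpG, bound or not: the median observed to expected CpG ratio was 0.714 in the 27 bound and 0.693 in the 25 unbound genes, and 0.743 and 0.629 over all bound and unbound protein-coding genes. The ratio was at least 0.6 in 46 of the 52 genes, and PHF20 bound 23 of them, 50%, against 29.7% of all protein-coding genes with such promoters. PHF20L1 bound 10, 21.7% against 5.33%. Of the 6 genes with a lower ratio PHF20 bound 4 (CLN3, CTSZ, TPP1 and ATP6V1E1), with PSAP and ATP6V0E1 not bound, while it bound 6.71% of all protein-coding genes of that class. Apart from TPP1 the 6 lay just below the limit, from 0.554 at CLN3 to 0.588 at CTSZ. The lower quartile over all unbound protein-coding genes was 0.301, so the class share is not a like background for them. TPP1 was the extreme, with a ratio of 0.216, lower than in all but 1.28% of bound protein-coding genes. By chromosome, PHF20 bound 1 of the 5 genes on the X chromosome (GLA; LAMP2, IDS, ATP6AP1 and ATP6AP2 were not bound), and 5.01% of all protein-coding genes on the X. On autosomes it bound 26 of 47, 55.3% against 21.5%.

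A peak at a shared promoter cannot be given to one gene. At 14 of the 27 bound genes the TSS of another protein-coding gene lay in or within 1000 bp of the PHF20 peak, 51.9% against 37.9% of all bound protein-coding genes. In 9 the neighbour was on the opposite strand: ALG1 at NAGPA, TSR3 at GNPTG, KLRG1 at M6PR, FAM47E at SCARB2, NEURL2 at CTSA, HNRNPH2 at GLA, NAA50 at ATP6V1A, EIF2S1 at ATP6V1D and BCL2L13 at ATP6V1E1. In the other 5 it was on the same strand, TMPPE at GLB1 and unnamed annotated genes at CLN3, CTSD, HEXA and ATP6V0C. Taking the annotated TSS of each gene that was nearest to the peak centre, the neighbour was closer at GLA (76 against 286 bp) and ATP6V1A (134 against 336 bp). Measured to the canonical TSS of the lysosomal gene instead, it was closer at 9 genes. LAMP1, IGF2R, GAA, TPP1 and PPT1 had no such neighbour.

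Other genes of the pathway gave shares between those of the 52 genes and those of all protein-coding genes. Of 76 further lysosomal and V-ATPase genes PHF20 bound 25, 32.9% (Wilson interval 23.4 to 44.1%) against 20.7%, and PHF20L1 bound 8, 10.5% against 3.82%. The 8 were SUMF1, which activates sulfatases, the chloride-proton exchanger gene CLCN7, the V-ATPase isoform gene ATP6V1E2, the V-ATPase assembly genes CCDC115 and TMEM199, the Ragulator genes LAMTOR3 and LAMTOR5, and FLCN, which encodes folliculin. Each was also bound by PHF20. PHF20 widths among the 8 ran from 271 bp at ATP6V1E2 to 1707 bp at TMEM199, and the median over the 25 bound genes was 828 bp. Of the 25, LIPA and ABCB9 were bound only at a TSS other than the canonical one. By list PHF20 bound 7 of 19 other hydrolases, 7 of 15 other membrane proteins, 7 of 12 Ragulator, Rag and folliculin genes, 3 of 8 assembly factors, 0 of 8 genes restricted to blood or other tissues and 0 of 4 MiT/TFE genes. The hexamer was in the PHF20 peak of 12 of the 25, 48% against 18.3% of all bound protein-coding genes, and the octamer in 6, 24% against 4.85%.

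The V-ATPase subunits have isoforms encoded by separate genes, many of them restricted to particular tissues. Of the 13 V1 and V0 genes of the main set PHF20 bound 9, and of 10 genes for other isoforms it bound 1, ATP6V1E2, with peaks of 271 bp for PHF20 and 230 bp for PHF20L1. RHOQ was also counted with a PHF20 peak of 271 bp and with PHF20L1, so this promoter may be shared. The share over all protein-coding genes was 20.7%, so the count among the 10 isoform genes was not far from the background. The promoters differed too. The median CpG ratio was 0.687 in the 13 and 0.399 in the 10, with 0.743 and 0.629 over all bound and unbound protein-coding genes. The hexamer was in the window of 8 of the 13 and 0 of the 10, against 24.0% of all protein-coding genes. Among the promoters with a ratio of at least 0.6, PHF20 bound 8 of 11 and 1 of 4, against 29.7% of all protein-coding genes of that class. Below that ratio it bound 1 of 2 and 0 of 6, against 6.71%.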

How the data were processed

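Peaks came from HA ChIP-Seq of U2OS cells that over-expressed HA-tagged PHF20 (2 ChIP, 1 input) or PHF20L1 (3 ChIP, 2 inputs), 8 samples in all. The authors aligned reads to hg38, kept unique and deduplicated reads, called peaks against input, removed blacklisted regions and kept the peaks of the best replicate that others overlapped. Bowtie 1.1.2 and MACS2 2.2.7.1 are named in the submitters' processing notes. The deposited values are start and end positions in bp of those peaks, with no name of the replicate, so edges and widths come from 1 replicate per protein, and height, read depth at a peak and replicate error are not in them. An additional PHF20 replicate was left out by the authors.

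Peaks that overlapped by at least 1 bp the promoter window (1000 bp before to 500 bp after a TSS) were assigned to protein-coding genes of GENCODE release 44, which is later than the release the authors used. Canonical TSSs are those of Ensembl canonical transcripts. Sequences were read from hg38 on both strands, with coordinates counted from 1, and peaks shared by genes were counted once in densities. Wilson intervals are at 95%. No test was run. Counting steps were checked on simulated data. Tools were samtools 1.23.1, pysam 0.24.0, Python 3.11.15 with numpy 2.4.6, pandas 2.3.3 and scipy 1.17.1, and matplotlib 3.10.9.

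The genes and lists were chosen with earlier results of these data known. Genes chosen for description were those with a PHF20L1 peak, the 5 with the widest PHF20 peak and those with the most CACGTG (2 or more, because of ties). Positions and sequences are given for part of them, and the others are named by role. The ATP6V0D1 site was printed outside this rule, chosen after its values were seen. At GNPTG, CLN3, GAA and ATP6V1A the printed copy was not the one nearest the peak centre. TCATGTGA and its combination with TCACGTGA were added after the data were seen, and so were the genes named for special sequence content or position. MCOLN1 sequences were also chosen in that way. Of 77 further pathway genes 76 matched by symbol. Other windows, TSS sets, peak widths and sequences were tried as alternatives. Sequences are printed for a selection of sites, and those of the others are not reported here.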

Additional observations from a re-analysis of the deposited data

How the results depend on the processing

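The PHF20 count was 27 with the peak centre in the window, with windows of 500 bp or 2000 bp on either side, with TSSs of protein-coding transcripts and with canonical TSSs. It was 24 with peaks of at least 300 bp and 21 with peaks of the list's median width or more, against 18.6% and 12.1% of all protein-coding genes. The PHF20L1 count, and that of both proteins, was 12 to 13 under the window and TSS alternatives (for PHF20L1, 3.47% to 3.89% of all protein-coding genes), 8 with peaks of at least 300 bp (against 2.27% for PHF20L1 and 2.21% for both), and 7 with peaks of median width or more, against 2.11% of all protein-coding genes for PHF20L1 and 1.94% for both. The share of bound genes with CACGTG was 55.6% in the 500 bp around the centre, 66.7% in the promoter window and 66.7% with peaks of at least 300 bp, against 15.5%, 28.4% and 19.2% of all bound protein-coding genes. It was 40.7% for CATGTG or CACATG in place of CACGTG, against 14.2%. With the octamer or TCATGTGA, chosen after seeing the data, it was 59.3% against 6.29%. The median width was 893 bp under all 3 alternatives, including the 13 genes without a protein-coding neighbour. No paired analysis was possible because each list holds the peaks of 1 replicate, kept by their overlap with the others, and no values of the other replicates. The lists give no read depth at a peak, so weak binding below the authors' threshold cannot be told apart from none.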
